A study of Homo sapiens with 12 samples.

Results

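Complement is a cascade of plasma and membrane proteins that marks and lyses target cells, and 9 of its components and regulators were followed here in RNA of a pancreatic carcinoma cell line. They are the proteases C1R, C1S and CFB, the central component C3, the soluble regulators SERPING1 and CFI, and the membrane regulators CD46, CD55 and CD59. The members were found by gene symbol among the 63086 genes of the deposited table, and each symbol matched a single row. The minimum for a test, an average normalised count of 10 across the libraries, was reached by 7 of the 9. The remaining 2 were CFB and CFI.

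The cells were MIA PaCa-2, a human pancreatic ductal adenocarcinoma line with mesenchymal features, and total RNA was sequenced from 4 lines with 3 biological replicates each, 12 libraries in all. The WT line was not edited. The CRISPR Control line had gone through editing but acquired only a silent point mutation in TIMP1, which encodes a secreted inhibitor of metalloproteinases, so that it remained TIMP1-competent. TIMP1 KO 1 and TIMP1 KO 2 were knockout clones made with guide RNAs against different parts of exon 4 of TIMP1. Which guide each clone received is not given here. All 4 lines grew in the same RPMI 1640 medium with fetal calf serum and received no treatment. Each edited line stands for a single editing event, so the effect of losing TIMP1 and the particular history of a clone cannot be told apart within a line. WT and CRISPR Control together are called the competent lines, and KO 1 and KO 2 the deficient lines.

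As background, complement can start through C1, in which C1R activates C1S after C1q has bound a target, or through the alternative pathway, in which CFB joins activated C3. Both routes cleave C3, whose larger fragment tags the target and feeds the formation of a membrane pore. Healthy and malignant cells protect themselves with regulators: SERPING1 inactivates C1R and C1S, CFI cuts activated C3 and C4 with CD46 as a cofactor, CD55 speeds the decay of the enzymes that cleave C3, and CD59 blocks the last step of the pore. Carcinoma cells are known to carry CD46, CD55 and CD59 on their surface and to make some of the soluble components, most of which come from the liver in plasma.

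Depth ran from 26908701 to 36093563 reads in genes per library, so that 1 read was worth between 0.828 and 1.19 normalised counts, the unit used throughout (reads divided by a size factor per library). TIMP1 itself stood at 3553 ± 274 for WT, 2690 ± 357 for CRISPR Control, 1600 ± 32.9 for KO 1 and 1161 ± 28.8 for KO 2 (means with SD over 3 libraries, as for all such values here), and all 6 deficient libraries lay below all 6 competent ones. TIMP1 RNA therefore differed from WT in the control line too, by a log2 fold change of -0.41 (adjusted p 7.69e-04 by limma). All 7 carcinoma markers checked were expressed, with sums from 266347 to 286687 for WT, 108689 to 136717 for CRISPR Control, 308208 to 315321 for KO 1 and 250516 to 271026 for KO 2. Within that list the epithelial cadherin CDH1 was at 1189 and 1424 as means of WT and CRISPR Control. In KO 1 and KO 2 its means were 128 and 84.9, so that it differed by TIMP1 status. The direction was opposite to that of CD46 and CD59. The mesenchymal cadherin CDH2 was also lower in the KO lines, at 571 and 1110 against 93.7 and 384. In WT, CRISPR Control, KO 1 and KO 2, EPCAM was at 1890, 1875, 2036 and 1299. In the same order VIM was at 70742, 58625, 93176 and 72716. The keratins KRT8, KRT18 and KRT19 were lowest in CRISPR Control, at 39963, 16912 and 4583 against 129995, 54161 and 15707 in WT. In KO 1 they were at 135667, 55794 and 24591, and in KO 2 at 96385, 35097 and 52497. KRT19 was thus higher in both KO lines than in both competent lines, opposite to CDH1. Of the 6 hepatocyte markers only SERPINA1, of the 6 leukocyte and macrophage markers only CD14 and ITGAM, and of the 4 endothelial markers only KDR reached the minimum for a test. ALB, the defining hepatocyte transcript, had at most 1 read in a library and the macrophage gene CD163 at most 2. The summed hepatocyte markers ranged from 101 to 120 for WT, 23.1 to 27.3 for CRISPR Control, 44.3 to 53.0 for KO 1 and 36.3 to 54.7 for KO 2, and in WT most of the sum was SERPINA1, at 98.2. APOA1 went the other way, at 3.31 in WT and 11.6, 7.63 and 6.57 in CRISPR Control, KO 1 and KO 2. The summed endothelial markers ranged from 133 to 145.5 for WT, 35.2 to 39.7 for CRISPR Control, 97.9 to 109 for KO 1 and 231 to 249.9 for KO 2. The summed leukocyte markers ranged from 55.5 to 69.5 for WT, 64.8 to 78.3 for CRISPR Control, 117 to 132 for KO 1 and 248.5 to 306 for KO 2. Of the 6 fibroblast markers 4 passed the minimum, and their sum ran from 7718 in the lowest CRISPR Control library to 64837 in the highest KO 1 library. Within that list COL1A2 was at 8217 in WT and at 8.56 or less in the 3 edited lines, so that WT stood apart there. The other tested fibroblast markers did not share this. COL1A1 was at 11490, 8868, 56612 and 33836 in WT, CRISPR Control, KO 1 and KO 2. In the same order PDGFRA was at 23.6, 2.95, 8.41 and 283, and PDGFRB at 14.0, 53.7, 32.7 and 48.2. The part of these markers in the results was not tested. In RNA from bulk cultures, fewer cells that express a gene and less RNA per cell cannot be told apart.

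The members spanned a wide range of expression in these cells. Per kilobase of merged exons, the mean level over all libraries was 1824 normalised counts for CD59, 245 for CD46 and 81.1 for CD55. The soluble genes were far lower on the same per-kilobase scale, at 7.63 for C1R, 5.54 for SERPING1, 5.35 for C3 and 4.31 for C1S, and CFB and CFI stood at 0.192 and 0.0138. Among the members, the membrane regulators were thus the abundant part in this line, and CD59 was ahead of CD46 in each of the 4 lines. This ranking does not extend to complement genes outside the members, which are described further below. On the same scale the soluble regulator CLU stood at 6367 and the C1q-binding protein C1QBP at 2771, both above CD59. The soluble gene CFD, at 258, was above CD46, and the remaining genes listed there were below CD46. These ranks are of means over all libraries. In KO 2 CFD was at 207 against 293 for CD46, and C1QBP at 1666 against 2556 for CD59. Merged exons count every annotated exon, 15505 bases for CD46 and 1818 for CFD, so these ranks depend on that length.

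**Figure D1:**
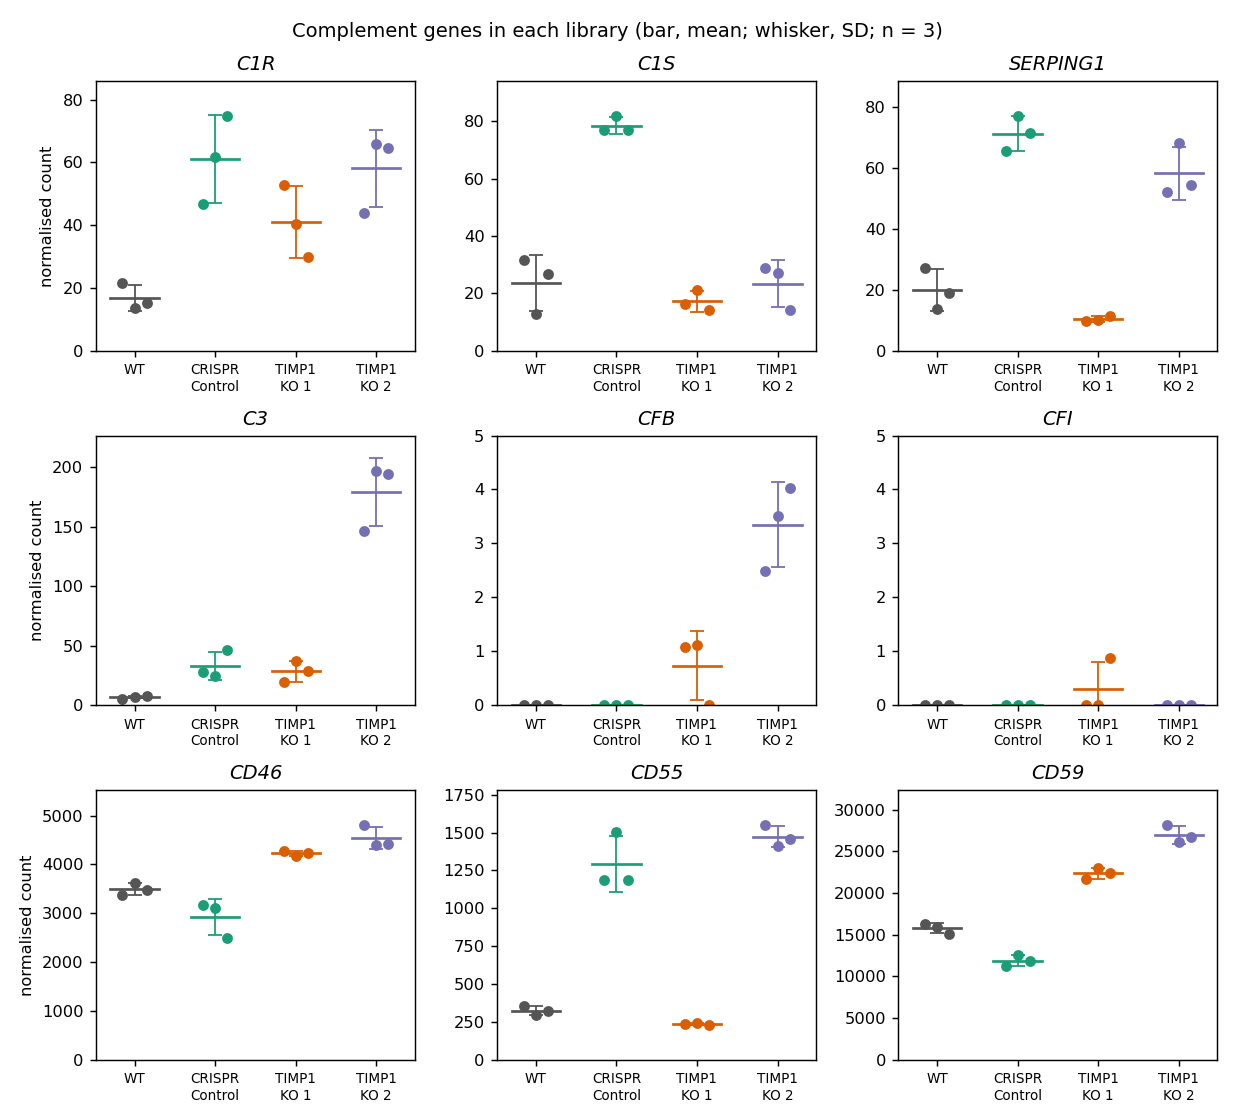
Normalised count (y axis, linear, from 0) of each complement gene in the 4 lines (x axis). Points are libraries, bars the mean and whiskers the SD (n = 3). C3 stood highest in KO 2, C1S in CRISPR Control, CD55 and SERPING1 in CRISPR Control and KO 2, and CD46 and CD59 in both KO lines.

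Most members differed between lines, but not in 1 common direction. Between KO 1 and WT, 6 of the 7 tested members differed (limma, adjusted p under 0.05), 4 higher and 2 lower in KO 1, against 35.5% of all 15987 genes tested, 18.0% higher and 17.5% lower. Between KO 2 and WT 6 differed, all of them higher in KO 2, against 55.0% of all genes, 27.1% higher and 27.9% lower. Between CRISPR Control and WT all 7 differed, 5 higher and 2 lower in CRISPR Control, against 53.4% of all genes, 27.2% higher and 26.3% lower. With so many genes called in every comparison, a call of a single member is common in these data, and the number of members is small. The median log2 fold change against WT of the 7 members was 0.28 in KO 1, 1.54 in KO 2 and 1.80 in CRISPR Control, where the median of all tested genes was 0.00, -0.01 and 0.01. These comparisons share the WT libraries.

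**Figure D2:**
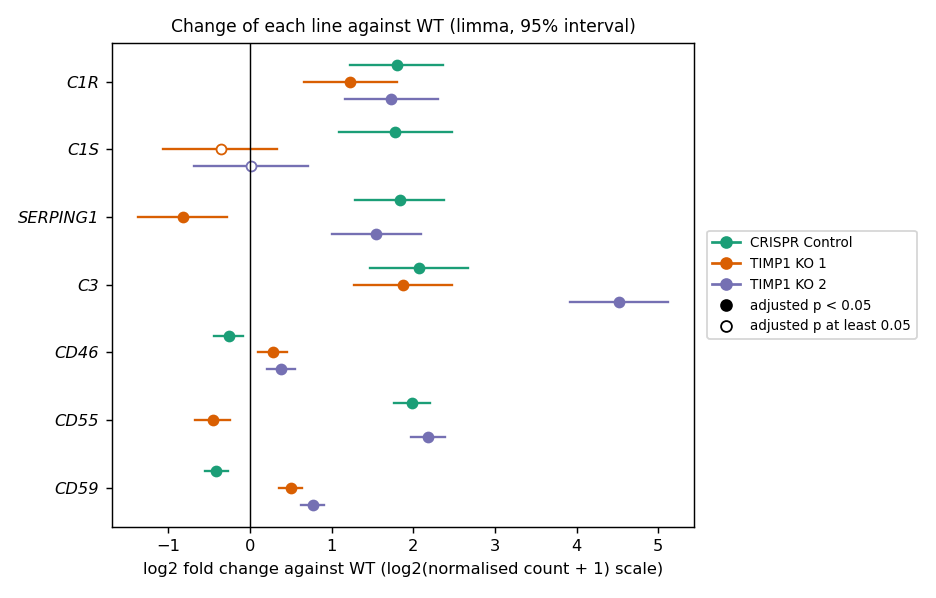
Log2 fold change against WT (x axis, log2(normalised count + 1) scale) of the 7 tested members in CRISPR Control, KO 1 and KO 2. Lines are 95% intervals of limma and filled points have an adjusted p under 0.05. CD46 and CD59 lie left of 0 in CRISPR Control and right of 0 in both KO lines, whereas CD55 and SERPING1 lie right of 0 in CRISPR Control and KO 2 and left of 0 in KO 1.

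The proteases of C1 came first. C1R (ENSG00000159403.18, chromosome 12 from 7080214 to 7092540, minus strand, GRCh38), which activates C1S, was at 21.5, 13.6 and 15.2 normalised counts in the WT libraries, 46.6, 61.7 and 74.7 in those of CRISPR Control, 52.9, 40.5 and 30.03 in those of KO 1 and 43.9, 65.8 and 64.6 in those of KO 2. Every edited library lay above every WT library, and the 3 edited lines overlapped each other. The log2 fold change of C1R against WT was 1.80 (SE 0.27) in CRISPR Control, 1.23 (SE 0.27) in KO 1 and 1.73 (SE 0.27) in KO 2, with adjusted p of 1.91e-05, 0.00151 and 2.59e-05 by limma. The difference in C1R between KO 1 and CRISPR Control was -0.57 (95% interval -1.14 to 0.00, limma, adjusted p 0.0759), and without KO 1 replicate 1 or CRISPR Control replicate 1 it was -0.76 or -0.74 with an adjusted p of 0.0346 or 0.0354. Exons of C1R overlap those of its neighbour C1RL on the same strand, whose reads can be shared with it. The line means of C1RL were 342 for WT, 155 for CRISPR Control, 694 for KO 1 and 674 for KO 2, and its part in the values of C1R was not tested.

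C1S (ENSG00000182326.17, chromosome 12 from 6988259 to 7071032, plus strand), the protease that C1R activates and that cleaves C4 and C2, did not follow C1R. Its libraries held 31.7, 12.7 and 26.7 normalised counts in WT, 16.2, 21.4 and 14.1 in KO 1 and 29.0, 27.2 and 14.1 in KO 2, and these 3 lines overlapped. The CRISPR Control libraries, at 76.9, 81.8 and 76.9, stood above all of them. C1S was higher in CRISPR Control than in WT by a log2 fold change of 1.78 (SE 0.33 and adjusted p 1.79e-04 by limma), and lower than CRISPR Control in KO 1 (-2.14, adjusted p 1.56e-05) and in KO 2 (-1.77, adjusted p 1.12e-04). Against WT the log2 fold change of C1S was -0.36 in KO 1 (95% interval -1.06 to 0.33, adjusted p 0.423) and 0.01 in KO 2 (95% interval -0.68 to 0.71, adjusted p 0.975), so that changes within these intervals were not detectable at this depth of 14 to 35 reads per library.

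SERPING1 (ENSG00000149131.17, chromosome 11 from 57597387 to 57619171, plus strand), the C1 inhibitor, split the KO lines. The WT libraries held 27.2, 13.6 and 19.05 normalised counts, those of KO 1 held 9.72, 10.1 and 11.5, those of KO 2 held 52.2, 68.4 and 54.5, and those of CRISPR Control held 65.6, 77.1 and 71.4. KO 1 lay below WT and KO 2 above it, without overlap, and KO 2 overlapped CRISPR Control. The log2 fold change of SERPING1 against WT was 1.84 (SE 0.26 and adjusted p 9.68e-06 by limma) in CRISPR Control and 1.54 (SE 0.26 and adjusted p 6.00e-05) in KO 2. In KO 1 it was -0.82 (SE 0.26 and adjusted p 0.0188), from 31 reads in 3 libraries, and this call was lost without WT replicate 1, where the value was -0.59 (adjusted p 0.111), and without KO 1 replicate 1, where it was -0.78 (adjusted p 0.0527). It was also lost without a filter on low values (adjusted p 0.0645), with only the libraries of these lines in the fit (adjusted p 0.0662) and with DESeq2 on the recovered reads (-0.91, adjusted p 0.0502). On the scale of level per kilobase of exon, C1R, C1S and SERPING1 were at 2.89, 2.86 and 2.76 as means of WT and at 10.5, 9.47 and 9.87 as means of CRISPR Control. In KO 1 the same per-kilobase levels were 7.09, 2.08 and 1.44, and in KO 2 they were 10.0, 2.83 and 8.07. The inhibitor and its target proteases were thus at like levels in the competent lines only, with C1R ahead of the inhibitor in KO 1 and C1S behind it in KO 2; these ratios were not tested.

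C3 (ENSG00000125730.18, chromosome 19 from 6677704 to 6730562, minus strand), the component on which all routes converge, had the largest fold change of the tested members, in KO 2 against WT. The WT libraries held 5.66, 7.27 and 7.62 normalised counts, or 21 reads in all, those of CRISPR Control 27.6, 24.9 and 46.2 and those of KO 1 19.4, 37.1 and 29.2. The KO 2 libraries held 147, 197 and 195 normalised counts, or 595 reads. WT was lowest and KO 2 highest with no overlap, and CRISPR Control and KO 1 overlapped between them. The log2 fold change of C3 against WT was 2.07 (SE 0.29 and adjusted p 7.12e-06 by limma) in CRISPR Control, 1.88 (SE 0.29 and adjusted p 4.33e-05) in KO 1 and 4.52 (SE 0.29 and adjusted p 1.98e-10) in KO 2, which is 22.9-fold on the log2(value + 1) scale. The ratio of the mean levels was larger, since KO 2 was at 2621% of WT, because the added count of 1 understates the change of low genes. C3 in KO 1 differed from CRISPR Control by -0.19 (95% interval -0.79 to 0.41, limma, adjusted p 0.578). C3 was also higher in KO 2 than in CRISPR Control, by 2.45 (adjusted p 4.02e-07).

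CFB (ENSG00000243649.10, chromosome 6 from 31945650 to 31952086, plus strand), the protease that joins activated C3 in the alternative pathway, was barely detected. It had 0 reads in all 6 competent libraries, 1, 1 and 0 reads in KO 1, and 3, 4 and 4 reads in KO 2. A count of 0 allows up to 3 reads per library, which is 2.59 to 3.56 normalised counts in the competent libraries, and the KO 2 libraries were at 2.49, 3.51 and 4.04. No fold is given for CFB, which was under the minimum for the test. Its exons overlap those of C2 on the same strand, which itself was at 5.93 ± 8.88 normalised counts in KO 2 with 16 reads in a single library. CFI (ENSG00000205403.15, chromosome 4 from 109731008 to 109802150, minus strand), the protease that inactivates C3b and C4b, had 1 read in all 12 libraries, in KO 1 replicate 3. Its other libraries were at 0, so that CFI was not detectable above the floor in any line. These limits cover counting error only.

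Promoter sequences were looked up for all members in RefSeq (GRCh38.p14), and 6 of the 9 had an entry at the start site of the main transcript. The promoter of CFB is shown because, of those 6, it held the most kinds of motif searched. The 150 bases before its start site, chr6:31945945-31946094 on the plus strand, read as follows, with the matches to 3 motifs in capitals.
CFB: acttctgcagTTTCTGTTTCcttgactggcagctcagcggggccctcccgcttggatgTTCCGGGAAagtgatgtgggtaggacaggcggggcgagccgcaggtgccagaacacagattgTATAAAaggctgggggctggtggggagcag
The first run of capitals is the interferon-stimulated response element (GAAA, any 2 bases, GAAA) read on the other strand, the second the gamma-activated site TTCNNNGAA, and the third the TATA box TATAAA, which begin 140, 92 and 30 bases before the start site. On both strands of windows from 250 bases before to 50 bases after the start, the first was found in 3.65%, the second in 7.88% and the third in 11.95% of 27305 promoters, 1 per gene. The NF-kappaB motif, in 5.72% of promoters, had no match in the windows of the 6 members. C1R and CFI had no match to any of the motifs searched. No match overlapped another. A match describes letters in this window only.

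Of the 7 tested members, the libraries of the membrane regulators CD46 and CD59 divided by TIMP1 status, as did those of 24.7% of all genes tested, so that this share is near the background. CD46 (ENSG00000117335.21, chromosome 1 from 207752037 to 207795513, plus strand), the cofactor with which CFI cleaves C3b and C4b on the cell surface, was at 3379, 3622 and 3478 normalised counts in WT and 3172, 3110 and 2492 in CRISPR Control. It was at 4281, 4170 and 4238 in KO 1 and at 4805, 4399 and 4424 in KO 2. All 6 deficient libraries lay above all 6 competent ones. The log2 fold change of CD46 against WT was 0.28 (SE 0.08 and adjusted p 0.0130 by limma) in KO 1, 0.38 (SE 0.08 and adjusted p 7.16e-04) in KO 2 and -0.26 (SE 0.08 and adjusted p 0.0113) in CRISPR Control, so that the control line lay on the other side of WT. Without WT replicate 1 the KO 1 value was 0.25 with an adjusted p of 0.0514, and without CRISPR Control replicate 3 the value of that line was -0.15 with an adjusted p of 0.0775. KO 2 and KO 1 differed in CD46 by 0.10 (95% interval -0.07 to 0.27, limma, adjusted p 0.353).

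CD59 (ENSG00000085063.18, chromosome 11 from 33703010 to 33736479, minus strand), which blocks the assembly of the pore, was the most abundant member per kilobase of exon. Its libraries held 16341, 15893 and 15124 normalised counts for WT, 11254, 12551 and 11868 for CRISPR Control, 21704, 23016 and 22401 for KO 1 and 28149, 26093 and 26705 for KO 2. The 4 lines did not overlap at any step, and the order was CRISPR Control, WT, KO 1 and KO 2. Each step passed the test: WT lay above CRISPR Control by 0.41 (adjusted p 4.91e-05 by limma), KO 1 above WT by 0.50 (SE 0.07 and adjusted p 9.34e-06) and KO 2 above KO 1 by 0.27 (adjusted p 0.00359). A gene (ENSG00000284969) that overlaps CD59 on the same strand had 10.3 to 32.1 normalised counts as line means.

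CD55 (ENSG00000196352.18, chromosome 1 from 207321519 to 207386804, plus strand), the decay-accelerating factor, behaved differently from both. The WT libraries held 352, 297 and 325 normalised counts and those of KO 1 held 237, 239.7 and 232, whereas those of CRISPR Control held 1185, 1506 and 1190 and those of KO 2 held 1549, 1411 and 1460. The lines thus fell into a low pair, KO 1 and WT, and a high pair, CRISPR Control and KO 2, each with 1 competent and 1 deficient line. The log2 fold change of CD55 against WT was 1.99 (SE 0.10 and adjusted p 8.50e-12 by limma) in CRISPR Control, 2.18 (SE 0.10 and adjusted p 2.60e-12) in KO 2 and -0.45 (SE 0.10 and adjusted p 0.00173) in KO 1. KO 2 and CRISPR Control differed in CD55 by 0.20 (95% interval -0.02 to 0.41, limma, adjusted p 0.0956). That difference passed the threshold without CRISPR Control replicate 2 (0.31, adjusted p 0.00870), with equal library totals (0.31, adjusted p 0.0115) and with edgeR on the recovered reads (0.22, adjusted p 0.0487).

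**Figure D3:**
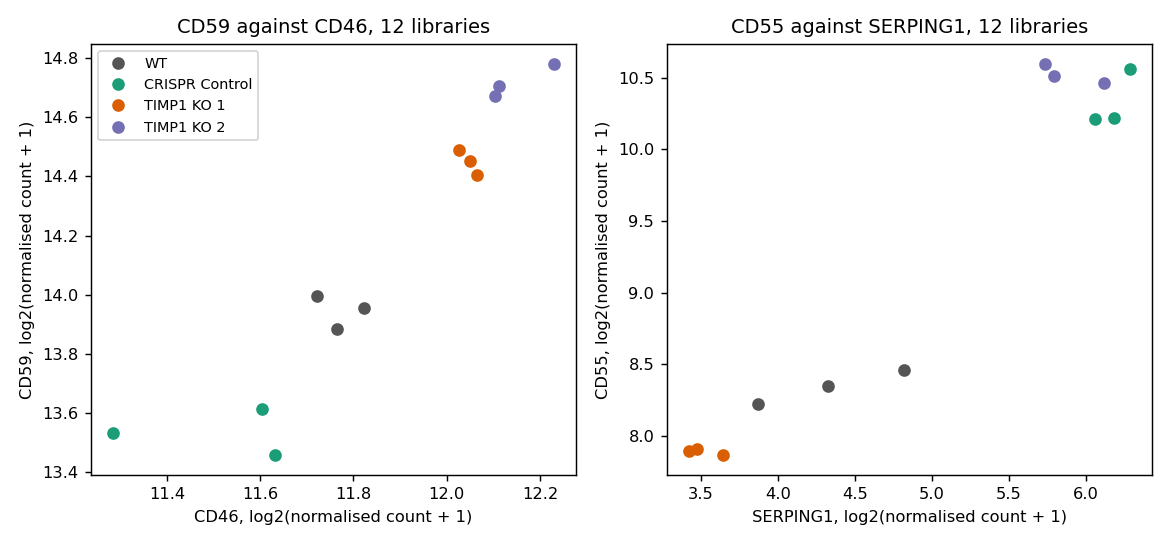
Log2(normalised count + 1) of CD59 against CD46 (left) and of CD55 against SERPING1 (right) in the 12 libraries, coloured by line. On the left the lines run from CRISPR Control through WT to KO 1 and KO 2, and on the right KO 1 and WT form a low group and KO 2 and CRISPR Control a high group.

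The promoters of the 3 membrane regulators are printed because CD46 and CD59 ordered the lines alike and CD55 did not. Each run is the 150 bases before the start site in RefSeq (GRCh38.p14), read 5′ to 3′ on the strand of the gene, and capitals mark GC boxes (GGGCGG on either strand). The positions are chr1:207751904-207752053 on the plus strand for CD46, chr11:33736424-33736573 on the minus strand for CD59 and chr1:207321528-207321677 on the plus strand for CD55.
CD46: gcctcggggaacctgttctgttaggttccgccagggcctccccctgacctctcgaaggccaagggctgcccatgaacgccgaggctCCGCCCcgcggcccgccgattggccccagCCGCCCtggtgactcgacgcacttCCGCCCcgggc
CD59: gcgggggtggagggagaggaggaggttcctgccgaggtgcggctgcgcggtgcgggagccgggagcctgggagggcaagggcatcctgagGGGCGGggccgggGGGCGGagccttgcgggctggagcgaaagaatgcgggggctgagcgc
CD55: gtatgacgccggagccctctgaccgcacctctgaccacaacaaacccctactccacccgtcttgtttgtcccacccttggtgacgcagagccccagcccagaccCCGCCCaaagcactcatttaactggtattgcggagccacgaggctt
GC boxes began 64, 35 and 11 bases before the start site in CD46, 60 and 47 bases before it in CD59, and 46 bases before it in CD55, and 44.6% of the 27305 promoters held at least 1. The printed runs had a GC content of 72.7% in CD46, 76.0% in CD59 and 60.0% in CD55. None of the 3 held the TATA box letters. CD59 also had a match to the gamma-activated site 184 bases before its start, beyond the printed run.

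Between the knockout clones 4 of the 7 members differed, all of them higher in KO 2, against 38.2% of all genes tested, 18.1% higher and 20.1% lower. Those were C3 by a log2 fold change of 2.64 (SE 0.29 and adjusted p 6.80e-07 by limma), CD55 by 2.63 (SE 0.10 and adjusted p 5.17e-13), SERPING1 by 2.37 (SE 0.26 and adjusted p 8.35e-07) and CD59 by 0.27. C1R, C1S and CD46 differed by 0.50, 0.38 and 0.10, with adjusted p of 0.157, 0.395 and 0.353. For CD55 and SERPING1 the difference was also one of direction against WT.

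Set against CRISPR Control in place of WT, the members gave another picture. In KO 1 5 of 7 differed from CRISPR Control, with CD46 and CD59 higher and C1S, CD55 and SERPING1 lower, against 63.0% of all genes, 31.7% higher and 31.3% lower. The log2 fold change of CD55 in KO 1 was -2.44 (SE 0.10 and adjusted p 1.53e-13 by limma) and that of SERPING1 -2.66 (SE 0.26 and adjusted p 4.62e-08). In KO 2 4 of 7 differed from CRISPR Control, with C3, CD46 and CD59 higher and C1S lower, against 67.7% of all genes, 33.3% higher and 34.4% lower. SERPING1 in KO 2 was at -0.29 against CRISPR Control (95% interval -0.84 to 0.25, limma, adjusted p 0.326) and C1R at -0.07 (95% interval -0.64 to 0.50, adjusted p 0.836). CD46 and CD59 were the members that were higher in each KO line against each competent line.

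In the mean of the deficient lines against the mean of the competent lines, 6 of the 7 members differed, with C3, C1R, CD46 and CD59 higher and C1S and SERPING1 lower, against 65.9% of all genes, 32.9% higher and 33.0% lower. CD59 was higher by a log2 fold change of 0.84 (SE 0.05 and adjusted p 1.38e-11 by limma) and CD46 by 0.46 (SE 0.06 and adjusted p 1.22e-06), and only these 2 of the 7 had all deficient libraries on 1 side of all competent libraries, as 24.7% of all genes did. The SE and p of this comparison come from the spread between libraries within lines. With 2 lines on each side, they do not measure the spread between clones. For the other members the mean joined lines that went apart. C3 was higher by 2.16 (adjusted p 2.08e-08), although KO 1 overlapped CRISPR Control. C1R was higher by 0.58 (adjusted p 0.0120), although CRISPR Control had its highest mean. C1S was lower (-1.06, adjusted p 5.54e-04), with a high level in CRISPR Control alone. SERPING1 was lower (-0.56, adjusted p 0.0122) and CD55 was at -0.13 (95% interval -0.28 to 0.02, adjusted p 0.121), with both high in KO 2 and CRISPR Control.

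Beyond the members, 51 other genes of the complement system were listed, and 14 of them reached the minimum for a test. Between KO 1 and WT 7 of the 14 differed (5 higher, 2 lower), against 35.5% of all genes, 18.0% higher and 17.5% lower. Between KO 2 and WT 10 differed (6 higher, 4 lower), against 55.0% of all genes, 27.1% higher and 27.9% lower. Between CRISPR Control and WT 4 differed (all lower), against 53.4% of all genes, 27.2% higher and 26.3% lower. The median log2 fold change of the 14 was 0.04, 0.56 and -0.33 in these comparisons. The genes that start the classical and lectin routes were mostly low, and C1QA, C1QB, C1QC, MBL2 and the ficolins FCN1 and FCN2 had at most 3 reads in any library. The others under the minimum had more, with up to 15 reads in a library for the ficolin FCN3, 16 for C2 and 17 for C4B. MASP2 and C4A passed the minimum, and C4A, whose reads can be split with its near-identical copy C4B, had 2.65 ± 2.33 normalised counts in CRISPR Control and 11.8 ± 5.52 in WT. Of the terminal pore genes C5 and C8G were tested, and C6, C7, C8A, C8B and C9 had at most 3 reads in a library.

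**Figure D4:**
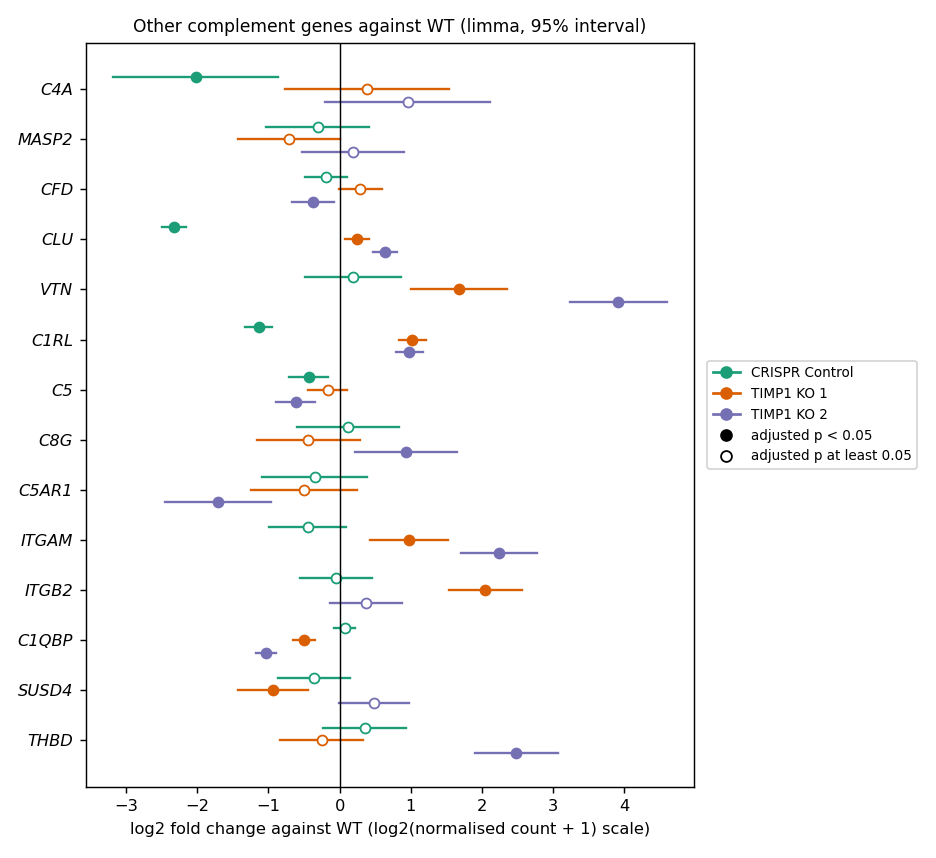
Log2 fold change against WT (x axis, log2(normalised count + 1) scale) of the 14 tested complement genes outside the 9 members, with 95% intervals of limma; filled points have an adjusted p under 0.05. VTN, ITGAM, CLU and C1RL lie right of 0 in both KO lines and C1QBP lies left of 0 in both.

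The 3 tested genes listed as fluid-phase regulators, CLU, VTN and C1RL, were higher than WT in both KO lines. Other soluble genes did not share this. In KO 2 against WT, CFD was at -0.38 and C5 at -0.62 (limma, adjusted p 0.0325 and 5.63e-04), and C8G was at 0.93 (adjusted p 0.0280). C4A and MASP2 were not called against WT in either KO line. CLU, a chaperone that keeps the terminal complex from inserting into membranes, was at 40529 ± 2414 normalised counts in WT, 48199 ± 889 in KO 1 and 63251 ± 4842 in KO 2, but at only 8075 ± 728 in CRISPR Control. Against WT its log2 fold change was 0.25 (adjusted p 0.0197 by limma) in KO 1, 0.64 (adjusted p 1.84e-06) in KO 2 and -2.33 (adjusted p 2.29e-14) in CRISPR Control, the same order of lines as for CD59. VTN, vitronectin, which also binds the terminal complex, was at 13.9 ± 7.46 in WT, 14.3 ± 2.20 with CRISPR Control, 42.0 ± 6.62 with KO 1 and 201.3 ± 17.8 with KO 2. It rose against WT by 1.68 (SE 0.32 and adjusted p 5.00e-04) in KO 1 and 3.92 (SE 0.32 and adjusted p 8.16e-09) in KO 2, with 0.19 (95% interval -0.49 to 0.87, adjusted p 0.655) in CRISPR Control. C1RL, a protease related to C1R, rose by 1.02 in KO 1 and 0.98 in KO 2 and fell by 1.14 in CRISPR Control (limma, adjusted p 5.51e-08, 3.94e-08 and 5.31e-09).

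Among receptors, ITGAM, a subunit of the receptor for cleaved C3b, rose by 0.97 in KO 1 and 2.24 in KO 2 (limma, adjusted p 0.00629 and 6.66e-07), from 18.8 ± 5.12 normalised counts in WT to 37.2 ± 3.45 and 91.7 ± 18.6. Its partner ITGB2 rose in KO 1, by 2.05 (adjusted p 2.28e-06), and was at 0.37 in KO 2 (adjusted p 0.207). ITGAM is also among the leukocyte markers given above, and the pan-leukocyte gene PTPRC had at most 9 reads in a library. C1QBP, a mitochondrial and surface protein that binds C1q, fell by 0.50 in KO 1 and by 1.03 in KO 2 (adjusted p 1.72e-05 and 5.24e-10). THBD, thrombomodulin, which aids the inactivation of C3b, was at 204 ± 18.9 in KO 2 and between 31.8 and 45.8 as means of the other lines, a rise of 2.48 against WT (adjusted p 4.76e-07). The remaining tested genes of this kind were C5AR1 and SUSD4. Against WT, C5AR1 was at -0.50 in KO 1 and -1.71 in KO 2 (limma, adjusted p 0.289 and 4.42e-04). SUSD4 was at -0.94 in KO 1 and 0.49 in KO 2 (adjusted p 0.00465 and 0.0914). In all, 5 of the 14 had every deficient library on 1 side of every competent library, namely CLU, VTN, C1RL and ITGAM above and C1QBP below, where 24.7% of all genes did.

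Genes with a pattern most like each member were taken as those whose log2 value correlated best with it over the 12 libraries, among tested genes with a mean of at least 100. The points fall into 4 lines of 3 libraries, so a high r says mainly that the means of the lines lie in the same proportion. For C3 the closest were ICAM1, an adhesion molecule (r = 0.980), MARCH4 (r = 0.979) and IRF1, a transcription factor of interferon responses (r = 0.978). IRF1 was at 305 ± 7.29 for WT, 440.3 ± 33.2 for CRISPR Control, 416 ± 56.7 for KO 1 and 841 ± 36.8 for KO 2 (normalised counts). For CD55 they were DKK1, an inhibitor of Wnt signals, DDIT3, a transcription factor of the stress response, and STAC, each with r = 0.988. For SERPING1 they were MMP1, the interstitial collagenase (r = 0.978), ZNF467 (r = 0.973) and KLHL13 (r = 0.968). MMP1 was at 25.5 ± 2.72 for WT, 389 ± 46.8 for CRISPR Control, 5.17 ± 3.39 for KO 1 and 253 ± 21.4 for KO 2, a wider spread than that of SERPING1.

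For CD46 the closest were AC009948.1 (r = 0.995), NEGR1 (r = 0.984) and ARID4B (r = 0.983), and for CD59 SERPINB1, an inhibitor of neutrophil proteases (r = 0.997), TMEM59 (r = 0.996) and CPA4 (r = 0.993). SERPINB1 was at 1607 ± 49.9 normalised counts for WT, 1046 ± 56.3 for CRISPR Control, 2614 ± 129.5 for KO 1 and 3198 ± 177 for KO 2, in the order of CD59. For C1R they were KCNG1 (r = 0.951), TPRG1L (r = 0.950) and ENDOV (r = 0.948). For C1S they were ZNF589 (r = 0.957), RBM20 (r = 0.948) and PCGF1 (r = 0.947), and RBM20 stood at 340.0 ± 75.7 in CRISPR Control against 62.0 ± 14.3 in WT, 64.0 ± 5.01 in KO 1 and 65.0 ± 18.0 in KO 2.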

How the data were processed

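Total RNA of 12 libraries was sequenced as read pairs. The authors trimmed with Cutadapt and aligned with STAR (GRCh38). They took gene counts from featureCounts and scaled each library with its DESeq2 size factor, so that the deposited values are a signal of scaled read counts. Strand setting and annotation release are not given in the sources used here. A change shared by most genes would be removed by this scaling. Values were whole multiples of 1 step per library for 100.0% of values (tolerance 0.01 reads), which returned the reads and their totals.

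The table held 63086 genes, a blank line that was left out, and 4 columns of line means that were not used. Groups came from the sample titles. limma (version 3.58.1, R 4.3.3) was run on log2(normalised count + 1) of the 15987 genes with a mean of at least 10, with 4 line means, a trended eBayes, two-sided tests and Benjamini-Hochberg adjustment over all genes at 0.05, for 7 comparisons. Alternatives were a pseudocount of 10, no filter, a minimum mean of 50, equal totals, quantile normalization, edgeR (4.0.16) and DESeq2 (1.42.0) on recovered reads, a fit of the compared lines only, a replicate block, a minimum change, and each library left out. The study used DESeq2 on counts. Because scaled values were deposited, it was an alternative here.

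Replicates of a line correlated with r from 0.990 to 0.992 across genes and differed by more than counting noise (chi-square per gene 4.31 to 26.7). The titles call them biological replicates, but nothing shows separate cultures, so p-values measure the spread between these libraries. Coordinates are of GENCODE release 44. Named genes were TIMP1, the 9 members, the tested genes of a list of 51 other complement genes, and for each tested member the 3 genes with the most similar pattern. A few untested genes of that list and of the marker lists were named after their values were seen. Members and lists were chosen with earlier results of these data known.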

Additional observations from a re-analysis of the deposited data

Results flagged for a closer look

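A set of 4 members differed in their effect between the knockout clones. The change against WT in TIMP1 KO 2 minus that in TIMP1 KO 1, tested as the direct difference of the clones with limma, was 2.64 for C3, 2.63 for CD55, 2.37 for SERPING1 and 0.27 for CD59 on the log2 scale. For CD55 and SERPING1 the clones lay on opposite sides of WT, with KO 1 lower and KO 2 higher. For C3 and CD59 both lay above WT. CD55 and SERPING1 were in KO 2 close to the CRISPR Control line, which kept TIMP1, and the cause was not tested.

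CFB was too low for the test, but had up to 4 reads in a KO 2 library, 3, 4 and 4 in all, where the 6 competent libraries had 0 reads. Since a count of 0 allows up to 3 reads, these values lie about at the floor, and no fold or p is given. C2, which overlaps CFB on the same strand, had 16 reads in a single KO 2 library.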

How the results depend on the processing

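Over 1001 combinations of a member, a comparison and an alternative, 979 kept the direction and the side of the threshold, 5 gained and 7 lost the call, and 10 changed sign, all of them small differences that were not called. For C3 in KO 1 against CRISPR Control the value became 0.05 or 0.07 when KO 1 replicate 1 or CRISPR Control replicate 3 was left out, in a range from -0.40 to 0.07 over all libraries left out in turn. For C1R in KO 2 against CRISPR Control it became 0.05 with equal library totals, and 0.09 or 0.12 without CRISPR Control replicate 3 or KO 2 replicate 1 (range -0.24 to 0.12). For C1S in KO 2 against WT it became -0.32 with quantile normalization, and -0.36, -0.17 or -0.12 without WT replicate 2, KO 2 replicate 1 or KO 2 replicate 2 (range -0.36 to 0.33), and C1S in KO 2 against KO 1 became -0.01 with quantile normalization. CD46 and SERPING1 lost 2 and 5 calls, given with the results.

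A minimum absolute log2 fold change of 1 left 2 members called in KO 1 against WT, 3 in KO 1 against CRISPR Control and 2 in deficient against competent lines, and 3, 5 and 7 other complement genes in KO 1 against WT, KO 2 against WT and KO 2 against KO 1. A minimum mean of 50 left only 4 members and 8 other genes to test, of which 4 members were called in CRISPR Control against WT, 3 in KO 1 against CRISPR Control and 3 in deficient against competent lines, and 5 other genes in KO 2 against CRISPR Control and 7 in KO 2 against KO 1. Without a filter 14 of 43 other genes were called between deficient and competent lines. When each library was left out in turn, members called in KO 1 against WT ran from 4, without WT replicate 1, to 6. The shares of all genes called under these alternatives, or with the replicate block below, are not given here. These counts were therefore not compared with a background. Equal library totals moved the median of all genes in KO 2 against CRISPR Control to 0.11. A fit of the compared lines alone was not made for deficient against competent lines, which already use all libraries.

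Replicate numbers did not pair the libraries. Deviations of same-numbered libraries correlated with r from -0.129 to 0.16 over 18 pairs, and only 2 of those exceeded 0.1. With a replicate block 6 members were called in KO 1 against WT and 6 in KO 2 against WT, as without it, and the block changed no count of called members in the other comparisons. Depth limits the soluble genes, with 15 to 19 reads of C1R, 14 to 28 of C1S, 15 to 24 of SERPING1 and 5 to 8 of C3 per WT library, and at most 4 reads of CFB or CFI in any library.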

Other observations

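Among complement genes too low for the test, C4BPB, the beta chain of the inhibitor that binds C4b, had 45 reads in the 3 KO 2 libraries (13.2 ± 5.06 normalised counts), 1 read in WT, 3 in CRISPR Control and 0 in KO 1. ITGAX, a subunit of another receptor for cleaved C3b, had 42 reads in KO 2 (12.7 ± 2.22), 6 in WT, 13 in CRISPR Control and 6 in KO 1. Both were chosen after their values were seen. They were under the minimum of the main test, and no fold or p is given for them here.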
